A study of Mus musculus with 8 samples.

Results

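The collagen and laminin genes encode the chains of the main structural proteins of the extracellular matrix. They were taken from the gene table of the experiment by name alone, as every gene called Col followed by a number, the letter a and a number, or Lama, Lamb or Lamc followed by a number. The rule gave 55 of 24015 genes, of which 44 were collagens and 11 were laminins. RNA-Seq had been carried out on 100-cell samples sorted from the aorta-gonad-mesonephros region with the vitelline and umbilical arteries (AGM+VU) of mouse embryos at E11.5, in midgestation. Hematopoietic clusters were the Ter119- VE-Cadherin+ Kit+ cells, and endothelium was the Ter119- VE-Cadherin+ Kit- CD41- CD45- fraction. Both were sorted from wild type and from Sl/Sl embryos. Sl/Sl embryos lack Kitl, which encodes the ligand of the receptor Kit, through a deletion at Steel. The deletion is in every cell of the embryo. Each of the 4 groups had 2 samples, each from a pool of 1 to 4 embryos of 1 genotype, over 2 sorting experiments. The labels do not tie a sample to an experiment or say that the 2 samples of a group came from different embryos, so p-values measure the spread between these samples.

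Collagen chains wind round each other into a triple helix, and laminins are cross-shaped trimers of an alpha, a beta and a gamma chain. Basement membranes, the thin sheets under endothelium and epithelium, are built on a network of collagen IV and a network of laminin, with collagens XV and XVIII at their edges. Interstitial matrix is instead made of the banded fibrils of collagens I, III and V, which fibroblasts and other mesenchymal cells lay down. Endothelial cells of developing vessels are known to secrete collagen IV and laminins of the alpha4 and alpha5 kind.

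Promoter sequences of genes on which the results turn are given first, for the basement membrane genes Col4a1, Col4a2 and Lamb1, each of which stood higher in all 4 endothelium libraries than in any cluster library, and for the interstitial Col1a2, which did not. They were read from the NCBIM37 (mm9) genome, the build of the deposited coordinates, at the first exon base of each gene in the table. Capitals mark the GC box, spelled GGGCGG, the CCAAT box, and the box whose letters read TATAAA, each searched on either strand, and a match is a description of the letters and not a binding site. Col4a1 on the minus strand and Col4a2 on the plus strand have 2 bases between their starts, so the first line covers both starts, with 50 bases of each gene, on the plus strand. In that line Col4a1 starts at position 50 and runs to the left, and Col4a2 starts at position 53 and runs to the right. The other lines run from 250 bases before the start to 50 bases into the gene, with the start at position 251, on the strand of the gene.
Col4a1 and Col4a2, chr8:11312777-11312878, plus strand: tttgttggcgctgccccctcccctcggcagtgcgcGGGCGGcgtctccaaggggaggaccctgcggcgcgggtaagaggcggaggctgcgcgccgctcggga
Lamb1, chr12:31949909-31950208, plus strand: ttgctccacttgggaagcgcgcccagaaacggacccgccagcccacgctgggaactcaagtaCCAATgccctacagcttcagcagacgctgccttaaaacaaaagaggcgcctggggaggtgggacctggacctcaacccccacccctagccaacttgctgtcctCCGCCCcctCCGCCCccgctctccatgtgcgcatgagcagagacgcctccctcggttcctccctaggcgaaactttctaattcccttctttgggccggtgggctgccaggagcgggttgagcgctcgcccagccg
Col1a2, chr6:4455447-4455746, plus strand: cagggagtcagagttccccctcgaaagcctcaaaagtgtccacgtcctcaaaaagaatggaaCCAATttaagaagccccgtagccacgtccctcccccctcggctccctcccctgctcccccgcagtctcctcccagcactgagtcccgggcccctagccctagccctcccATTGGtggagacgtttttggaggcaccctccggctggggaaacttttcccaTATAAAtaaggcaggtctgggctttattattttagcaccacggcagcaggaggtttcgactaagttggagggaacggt

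The Col4a1 and Col4a2 line, of 102 bases against 300 in the others, holds 1 GC box, at positions 36 to 41, and 75.5% of its bases are G or C. In the window of 300 bases of its own, Col4a1 has 1 GC box and 1 CCAAT, and Col4a2 has 3 GC boxes and 1 CCAAT. Lamb1 has 2 GC boxes. TATAAA stands in the Col1a2 line, at positions 223 to 228, and in neither of the other lines. The Col1a2 line also holds CCAAT at 2 places, and the Lamb1 line holds it at positions 63 to 67. Over windows of 300 bases at all starts, 44.8% of 23926 held a GC box, 37.9% held CCAAT and 13.1% held TATAAA. Among the 55 members these were 34, 15 and 8 windows. The other collagen IV genes are also paired head to head, Col4a3 and Col4a4 with 71 bases between their starts on chromosome 1, and Col4a5 and Col4a6 with 1342 bases between theirs on chromosome X.

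The libraries held 8933236 to 13428214 counts on genes. Kitl, the gene that Sl/Sl embryos lack, had 1250 and 923 counts in endothelium of wild type against 6 and 2 for Sl/Sl, and 110 and 0 counts in clusters against 1 and 3. Hematopoietic markers summed to 1249 to 1825 CPM (counts scaled to library size) in clusters and 263 to 295 CPM in endothelium, and Ptprc, which encodes CD45, had 1294 to 3908 counts in clusters and 6 to 16 in endothelium. A list of 8 endothelial markers summed to 4767 to 5426 CPM in the 4 endothelium libraries, and all 8 were detected in every library. In clusters the same list ranged from 219 CPM in wild type replicate 2 to 2202 CPM in Sl/Sl replicate 1. Mesenchymal and perivascular markers summed to 3504 CPM in Sl/Sl clusters replicate 2 and to 437 to 792 CPM in the other cluster libraries. In both genotypes the 2 cluster libraries differed from each other in the results below. With 2 libraries in a group, neither can be named as the one that departs. Values with single libraries left out are given.

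Collagen and laminin genes took more of the counts in all 4 endothelium libraries than in 3 of the 4 cluster libraries. They made up 0.556% and 0.354% of the counts for wild type endothelium, then 0.512% and 0.450% for Sl/Sl, in replicates 1 and 2 in turn, an order kept below. Clusters gave 0.170% and 0.0860% for wild type, then 0.121% and 0.426% for Sl/Sl. The widest counting interval (95%, Wilson) was 0.00439 percentage points to either side, and it covers counting error only, since the libraries carry no molecular identifiers. The make-up of the share differed as well as its size. Collagen IV held 48.1% to 54.2% of the members' counts in the 4 endothelium libraries. In clusters it held 33%, 3.54%, 50.1% and 8.64%, listed as wild type and then Sl/Sl. Fibrillar collagens held 8.88% to 14.7% of the members' counts in endothelium, and 38.9%, 75.6%, 11.1% and 75.5% in the 4 cluster libraries. Col4a1 was the leading single member in all 4 endothelium libraries and in replicate 1 of both cluster groups. In wild type clusters replicate 1 the fibrillar collagens together nevertheless held more than collagen IV. Col3a1 led in wild type clusters replicate 2 and Col1a2 in Sl/Sl clusters replicate 2.

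**Figure D1:**
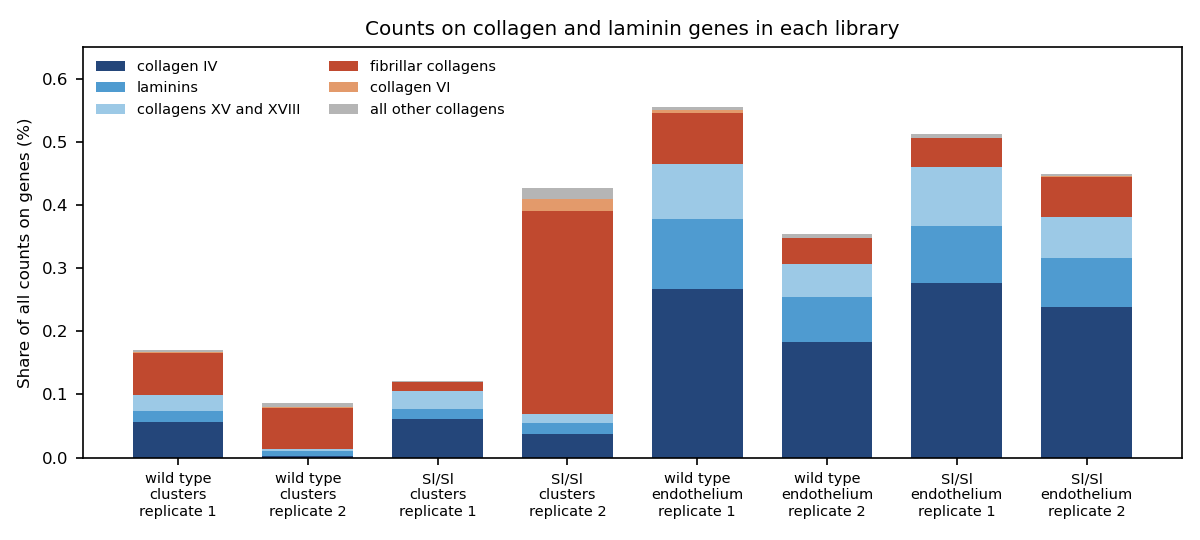
Share of all counts on genes (y axis, %) that fell on collagen and laminin genes in each of the 8 libraries (bars), split by class of chain. Collagen IV is the largest part of all 4 endothelium bars, at 48.1% to 54.2% of the members' counts, and fibrillar collagens are the largest part of the bars of clusters replicate 2 in both genotypes, at 75.6% and 75.5%.

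Collagen IV, the network-forming collagen of basement membranes, was the most abundant class in endothelium per unit of length. Levels are given as RPKM, counts divided by exon length in kilobases and by library size, and groups of 2 as mean ± SD. Col4a1 (chr8:11198423-11312826) stood, within endothelium, at 268 and 180.0 RPKM for wild type and 266 and 229.8 RPKM for Sl/Sl. In clusters Col4a1 was at 62.4 and 2.06 RPKM for wild type and 58.7 and 33.2 RPKM for Sl/Sl. All 4 endothelium libraries were thus above all 4 cluster libraries. Its head-to-head partner Col4a2 (chr8:11312829-11449287) was at 135 and 97.2 (wild type) and 154 and 128 RPKM (Sl/Sl) in endothelium, and at 17.7 and 1.92 (wild type) and 32.6 and 12.1 RPKM (Sl/Sl) in clusters. The groups again did not overlap by cell type. The ratio of Col4a1 to Col4a2 per length was 1.73 to 1.98 in the 4 endothelium libraries, and 3.52, 1.07, 1.80 and 2.73 in the cluster libraries. Over the 4 cluster libraries Col4a2 was lowest in wild type replicate 2 and highest in Sl/Sl replicate 1. Its order over all 4 was that of the summed endothelial markers, at 219, 529.8, 1017 and 2202 CPM. Col18a1 kept that order too, while Col4a1, Col15a1, Lama3, Lama4, Lamb1, Lamb2 and Lamc1 did not. The part of endothelial cells in the levels was not tested. In bulk samples, fewer cells of a type and less RNA per cell cannot be told apart.

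The remaining collagen IV chains, which form the networks of kidney, muscle and smooth muscle basement membranes, were low. Col4a5 was at 2.65, 2.42, 3.05 and 3.67 RPKM in the endothelium libraries (wild type, then Sl/Sl, here and below) and at 4.58, 0.27, 0.784 and 6.38 RPKM in the cluster libraries. The cluster libraries lay on both sides of the endothelium libraries. Col4a6 was at 2.30, 0.774, 0.0126 and 1.95 RPKM in endothelium and 0.574, 0.407, 0.226 and 4.45 RPKM in clusters. Col4a3 and Col4a4 had at most 9 and 8 counts in any library and were not tested.

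Among laminins, the chains Lama4, Lamb1 and Lamc1, which together form the main laminin of young vessels, were the highest in endothelium. Lamb1 (chr12:31950159-32014504) was at 73.2 and 41.3 (wild type) and 53.3 and 34.8 RPKM (Sl/Sl) in endothelium, and at 8.48 and 5.18 (wild type) and 6.46 and 6.44 RPKM (Sl/Sl) in clusters. Lama4 (chr10:38685321-38829994) was at 54.7 and 34.1 (wild type) and 26.6 and 34.1 RPKM (Sl/Sl) in endothelium, and at 5.63 and 1.59 (wild type) and 5.87 and 1.43 RPKM (Sl/Sl) in clusters. Lamc1 (chr1:155066052-155179916) was at 22.7 and 22.4 (wild type) and 35.5 and 34.1 RPKM (Sl/Sl) in endothelium, and at 6.65 and 1.68 (wild type) and 7.25 and 6.73 RPKM (Sl/Sl) in clusters. For each of these 3 chains the lowest endothelium library was above the highest cluster library. Lamb1 spread least over clusters, with 5.18 to 8.48 RPKM where Col4a1 ran from 2.06 to 62.4 RPKM. Summed by type of chain, alpha chains in endothelium stood at 52.6 ± 17.2 RPKM (wild type) and 40.8 ± 3.14 RPKM (Sl/Sl), beta chains at 62.9 ± 25.7 and 48.2 ± 12.2 RPKM, and gamma chains at 25.0 ± 3.71 and 36.3 ± 3.02 RPKM (SD, n = 2).

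Other laminin chains were lower. Lama3, an alpha chain known best from skin and other epithelia, was at 5.80, 3.15, 9.53 and 5.79 RPKM in endothelium and 0.593, 0.254, 1.72 and 0.194 RPKM in the cluster libraries. Lamb2, a beta chain of mature vessels, kidney and muscle, was at 7.87, 3.46, 3.48 and 4.76 RPKM in endothelium and 1.5, 0.906, 0.326 and 1.64 RPKM in clusters. Neither chain overlapped between the cell types. Lama5, the other alpha chain of vessels, was at 0.807, 2.57, 1.30 and 0.354 RPKM in endothelium and 1.77, 0.119, 0.674 and 0.34 RPKM in clusters, and the cell types overlapped. The ratio of Lama4 to Lama5 per length was 13.3 to 96.3 in endothelium and 3.18 to 13.4 in clusters. Lama2, the alpha chain of muscle, had 129 and 372 counts in clusters replicate 2 of wild type and Sl/Sl, 0 in replicate 1 of both, and 0 to 3 counts in endothelium. Lamc3 had 0 to 198 counts and was highest in Sl/Sl endothelium replicate 1. Lamb3, a beta chain of epithelia, had 62 and 7 counts in replicate 1 of wild type and Sl/Sl clusters and 0 elsewhere, and was not tested.

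Collagens XVIII and XV, the proteoglycan collagens of the basement membrane zone, showed the endothelial pattern too. Col18a1 (chr10:76514924-76629275), whose C-terminal fragment is endostatin, was at 143 and 83.2 (wild type) and 149 and 101.5 RPKM (Sl/Sl) in endothelium, and at 39.8 and 4.41 (wild type) and 47.5 and 22.4 RPKM (Sl/Sl) in clusters. It was the second most abundant member over all libraries. Col15a1 was at 7.28, 8.15, 12.1 and 10.1 RPKM in endothelium and 4.77, 0.629, 2.02 and 0.574 RPKM in clusters. Neither gene overlapped between the cell types. The share of all genes without overlap between the cell types is not given here, so the lack of overlap is a description only.

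**Figure D2:**
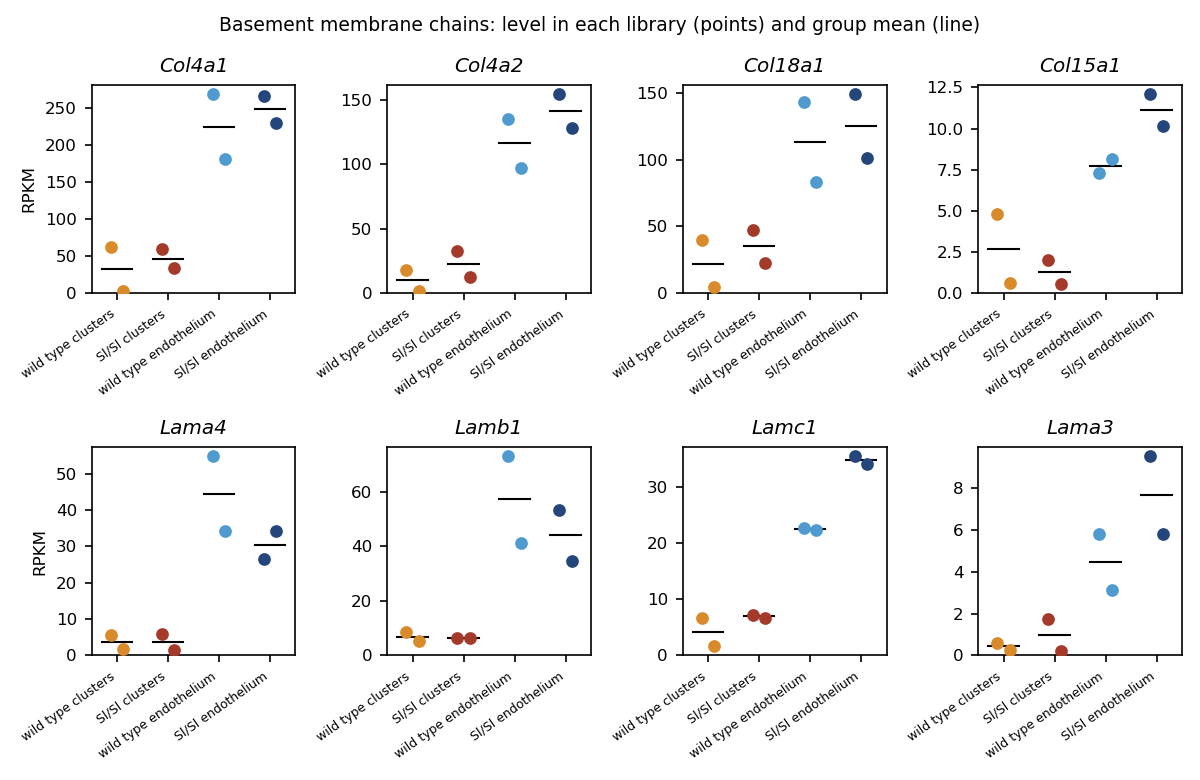
Level (y axis, RPKM, from 0) of 8 basement membrane chains in the 4 groups (x axis), each point 1 library and each line the mean of 2. In all 8 panels the endothelium points lie above the cluster points, with Lamb1 at 34.8 to 73.2 RPKM against 5.18 to 8.48 RPKM. Lama1, Lama2, Lama5, Lamc3, Col4a5 and Col4a6, which overlapped between the cell types over all libraries, are not among the panels.

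The comparison of endothelium with clusters asked which of these genes differed between the cells that line the vessel and the clusters attached to them. In wild type, 6 of the 7 members that rose were basement membrane chains. edgeR's quasi-likelihood test was fitted to all 8 libraries, with Benjamini-Hochberg adjustment over 13908 genes and a threshold of 0.1. It tested 40 members and called 7 higher and 0 lower in wild type endothelium, where it called 4.56% of all genes tested higher and 3.68% lower. At an unadjusted p under 0.05 it gave 0 members lower, beside 9.14% of all genes. DESeq2 called 10 members higher, among them Col18a1 and Lamb2, which edgeR did not call, beside 9.81% of all genes, and 0 lower, beside 9.37%. By class the 7 members edgeR called were 5 of 10 laminins, 1 of 4 collagen IV genes and 1 of 8 fibrillar collagens. Lamb1 rose by 3.20 ± 0.40 on the log2 scale (± the fitted standard error, the log2 fold change over the square root of F), or 9.16-fold (adjusted p = 0.00322). Lama4 rose by 3.76 ± 0.76 (adjusted p = 0.0271) and Lamc1 by 2.59 ± 0.53 (adjusted p = 0.0286). The 3 chains are those of the vessel laminin named above. Col4a2 rose by 3.72 ± 0.87 (adjusted p = 0.0450) and Lama3 by 3.53 ± 1.00 (adjusted p = 0.0855). Lama1, the alpha chain of the earliest embryonic basement membranes, had 418 and 65 counts in endothelium and none in either cluster library. Its endothelium mean was thus at least 74.9-fold higher when each cluster library is set at 3 counts (adjusted p = 0.0219). Col5a2, a fibril collagen and the only member called outside the basement membrane classes, was at 51.2 and 33.9 RPKM in wild type endothelium and 14.7 and 10.9 RPKM in wild type clusters and rose by 1.86 ± 0.43 (adjusted p = 0.0447). The median log2 fold change over the 40 members was 0.73, beside -0.0032 over all genes tested.

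In wild type, neither edgeR nor DESeq2 called Col15a1, although its levels did not overlap. Its log2 fold change was 1.67 ± 0.93 (edgeR, adjusted p = 0.360, and DESeq2, adjusted p = 0.244). Col4a1 and Col18a1, although their levels did not overlap, were not called by edgeR in wild type, with log2 fold changes of 2.95 ± 1.07 (adjusted p = 0.171) and 2.51 ± 0.81 (adjusted p = 0.129). Both were called when edgeR's fit held replicates as a block, and DESeq2 called Col18a1 (adjusted p = 0.0935). Both varied between the wild type cluster libraries by 62.4 against 2.06 RPKM and 39.8 against 4.41 RPKM. Without wild type clusters replicate 1 both were called, among 9 members, and without replicate 2 Col4a1 was called and Col18a1 was not, among 7. The call of Col5a2 was lost without wild type clusters replicate 2 (adjusted p = 0.165) or wild type endothelium replicate 1 (adjusted p = 0.143), and that of Lama3 without either cluster library or endothelium replicate 1 (adjusted p = 0.107 to 0.272) or with an offset for exon length (adjusted p = 0.113).

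In Sl/Sl embryos, 3 members were called higher in endothelium and 0 lower, beside 0.985% of all genes tested higher and 1.84% lower. At an unadjusted p under 0.05 edgeR gave 2 members lower, Lama2 and Col12a1, beside 7.83% of all genes. DESeq2 called 7 members higher, beside 4.18%, and 3 lower, Lama2, Col12a1 and Col6a1, beside 6.65%. The 3 genes called higher by edgeR were also called in wild type. That comparison sets other libraries against each other, but both tests share an estimate of spread from all 8 libraries and are not independent. Lamb1 rose by 2.90 ± 0.39 (adjusted p = 0.00971), Lamc1 by 2.45 ± 0.53 (adjusted p = 0.0636) and Lama4 by 3.17 ± 0.74 (adjusted p = 0.0837). Col4a2, at 2.77 ± 0.83 (adjusted p = 0.166), Col15a1, at 3.21 ± 0.99 (adjusted p = 0.179), and Lama3, at 3.10 ± 0.97 (adjusted p = 0.188), did not pass edgeR's test. DESeq2 called these 3 genes (adjusted p = 0.0906, 0.00947 and 0.0108) and Col5a2 (adjusted p = 0.0507) besides the 3 that edgeR called, and Col4a2, Lama3 and Col18a1 were called as well when edgeR's fit held replicates as a block. Lamb1 was called in both genotypes under all 13 alternative settings, in each of which its log2 fold change was positive. Lama4 lost its call without Sl/Sl clusters replicate 2 or Sl/Sl endothelium replicate 2 (adjusted p = 0.178 and 0.112), with an offset for exon length (adjusted p = 0.108) or with the 2 groups compared fitted alone (adjusted p = 0.158). Lamc1 lost its call without either Sl/Sl cluster library or without endothelium replicate 1 (adjusted p = 0.115 to 0.200). Without Sl/Sl clusters replicate 1, 5 members were called, of which Col1a2 and Col3a1 were lower in endothelium.

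Of the 40 members, 16 had positive log2 fold changes in both genotypes, 13 had negative ones in both and 11 had opposite signs. In Sl/Sl the median over the 40 members was -1.0, beside -0.07 over all genes tested. Without Sl/Sl clusters replicate 2 it was 2.20. All 7 tested fibril-associated collagens and all 3 tested collagen VI genes had negative values in Sl/Sl, none of which passed the test. Basement membrane classes kept positive medians, at 1.31 for collagen IV, 2.59 for collagens XV and XVIII and 1.96 for laminins, where the wild type medians were 2.36, 2.09 and 2.89.

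**Figure D3:**
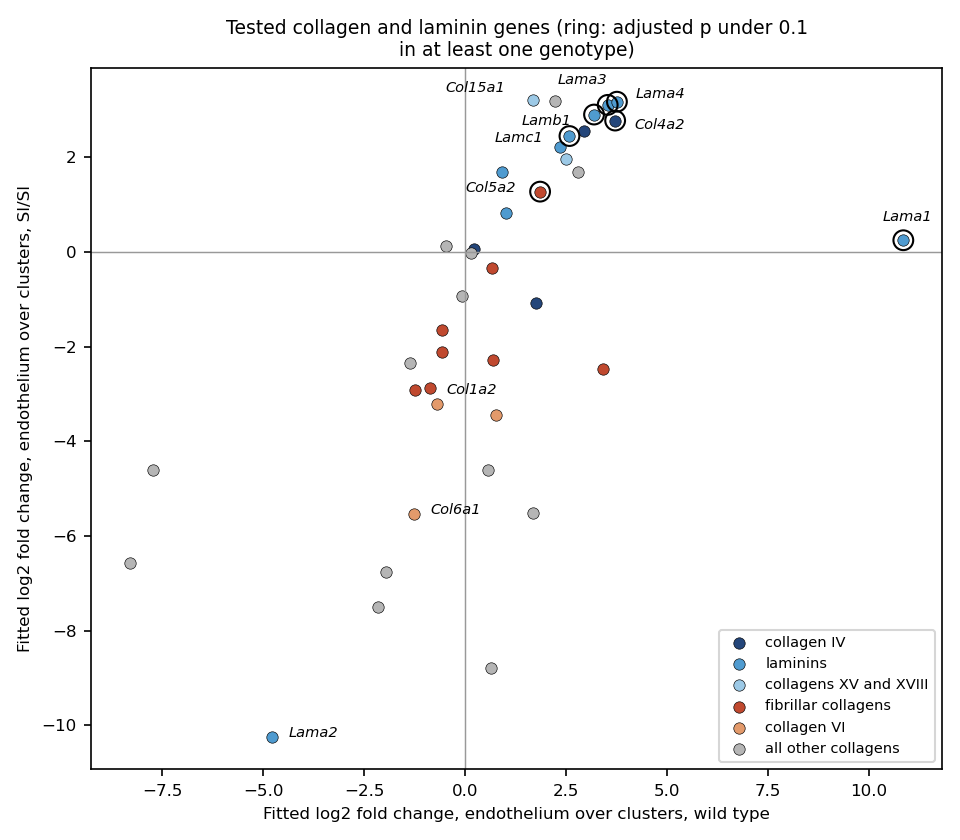
Fitted log2 fold change of endothelium over clusters in wild type (x axis) and in Sl/Sl (y axis) for 39 of the 40 tested members, coloured by class, with a ring where the adjusted p was under 0.1 in at least 1 genotype. All ringed genes lie right of 0 and above it, most of them laminins, with Lama1 far to the right at 0.25 on the Sl/Sl axis, and collagen VI, the fibrillar collagens except Col5a2 and most collagens of the grey group spread below 0 in Sl/Sl.

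The interstitial collagens followed another pattern, in which single cluster libraries differed more than the groups. Col1a2 (chr6:4455697-4491543), the second chain of collagen I, was at 31.4 and 43.0 RPKM in wild type clusters, 1.41 and 224 RPKM in Sl/Sl clusters, 26.2 and 11.4 RPKM in wild type endothelium, and 4.53 and 22.8 RPKM in Sl/Sl endothelium. Its partner chain Col1a1 (chr11:94797584-94813170) was at 30.4, 20.4, 1.07 and 119 RPKM in the cluster libraries and 16.8, 3.20, 0.0537 and 14.1 RPKM in endothelium. Col3a1 (chr1:45368383-45406551), the fibril collagen of vessel walls and soft tissue, was at 41.2, 41.5, 1.84 and 198 RPKM in clusters and 41.8, 9.73, 8.0 and 32.6 RPKM in endothelium. The 2 Sl/Sl cluster libraries were the lowest and the highest of the cluster libraries for all 3 genes. Col5a1, the partner of Col5a2 in collagen V, was at 2.56, 1.10, 0.526 and 16.2 RPKM in clusters and 1.62, 0.635, 0.48 and 4.26 RPKM in endothelium. Col5a2 did not follow it, at 14.7, 10.9, 12 and 29.0 RPKM in clusters and 51.2, 33.9, 55.0 and 34.7 RPKM in endothelium, and the ratio of Col5a2 to Col5a1 per length was 1.79 to 22.8 in clusters and 8.14 to 114.6 in endothelium.

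The 15 mesenchymal and perivascular markers summed to 596, 792, 437 and 3504 CPM in the cluster libraries. That was the order of Col1a2 and Col3a1, and not of Col1a1 or Col5a1. In endothelium they summed to 1715, 293.5, 628 and 1051 CPM, which was not the order of Col1a2, with 0 to 3 of the 15 at 0 in a library. Acta2 alone made up 374 of the 437 CPM in Sl/Sl clusters replicate 1 and 428 of the 628 CPM in Sl/Sl endothelium replicate 1. Among cluster libraries, Acta2 (153, 121, 374 and 793 CPM) and Tagln (8.46, 48.9, 33.1 and 187 CPM) were not lowest in Sl/Sl replicate 1. Nor was Notch3 (5.49, 3.58, 6.09 and 7.37 CPM). Pdgfrb (0, 165, 1 and 508 counts) and Des (0, 20, 1 and 173 counts) were lowest in wild type replicate 1. Cspg4 and Tcf21 were at 0 in Sl/Sl replicate 1 and in another cluster library. Dcn, Lum, Pdgfra, Postn, Prrx1, Rgs5, Twist1 and Twist2 were lowest in Sl/Sl replicate 1. Dcn, which encodes the collagen-binding proteoglycan decorin, had 865, 1640, 35 and 7625 counts in clusters and 3759, 2, 16 and 1478 counts in endothelium. Lum, which encodes its relative lumican, had 1844, 3825, 34 and 16718 counts in clusters and 7567, 324, 32 and 4360 in endothelium. The part of mesenchymal cells in the levels was not tested. None of Col1a1, Col1a2, Col3a1 or Col5a1 passed the test in wild type or in Sl/Sl (adjusted p = 0.780 to 0.879 and 0.432 to 0.631).

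**Figure D4:**
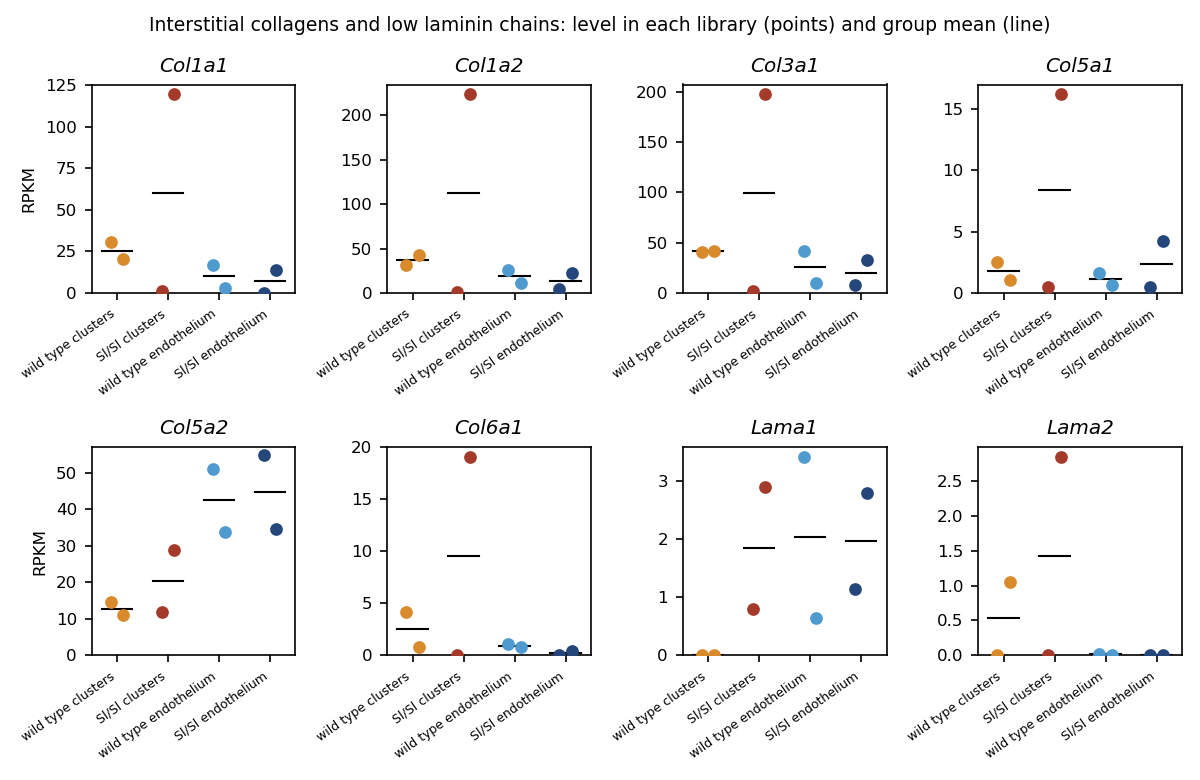
Level (y axis, RPKM, from 0) of 6 interstitial collagens and 2 low laminin chains in the 4 groups (x axis), each point 1 library and each line the mean of 2. For Col1a1, Col1a2, Col3a1, Col5a1 and Col6a1 1 Sl/Sl cluster library is the highest of the 8, at 224 RPKM for Col1a2, whose other Sl/Sl cluster library is at 1.41 RPKM. Col5a2 is higher in all 4 endothelium libraries, Lama1 is at 0 in both wild type cluster libraries, and Lama2 is highest in replicate 2 of the cluster groups.

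The other 16 tested members were collagens that edgeR called in no comparison, and no RPKM among them exceeded 19.1, the value of Col6a1 in Sl/Sl clusters replicate 2. Collagen VI, which forms beaded filaments round cells, summed to 5.38, 2.79, 0.0462 and 36.5 RPKM in clusters and 4.43, 0.80, 1.04 and 0.913 RPKM in endothelium over its chains. Col6a2, Col6a3, Col8a1, Col9a1, Col11a1, Col12a1 and Col16a1 were also highest in Sl/Sl clusters replicate 2. Not tested, because of low counts, were Col4a3, Col4a4, Col5a3, Col6a4, Col6a5, Col6a6, Col8a2, Col9a3, Col10a1, Col11a2, Col17a1, Col20a1, Col24a1, Col28a1 and Lamb3, 15 in all. The highest count among them was 82, for Col28a1 in Sl/Sl endothelium replicate 1, and Col6a5 was at 0 in every library.

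The comparison of Sl/Sl with wild type asked whether loss of Kitl went with a change in either cell type. In clusters, 0 of the 40 members passed edgeR's test, as did 0.0% of all genes tested. At an unadjusted p under 0.05 edgeR gave 2 members, among them Lama1, beside 4.22% of all genes, and DESeq2 called 1 member, Lama1, beside 1.16%. Lama1 had 91 and 371 counts in Sl/Sl and 0 and 0 for wild type clusters. The Sl/Sl mean was at least 68.0-fold higher against 3 counts in each wild type library (edgeR, adjusted p = 0.398). Lama1 did not overlap between the genotypes in clusters, and neither did Lamc1 or Col2a1. The share of all genes without overlap in clusters is not given here. A list of 10 sarcomere genes summed to 14.3, 39.3, 363 and 748 CPM in the 4 cluster libraries with 7, 6, 4 and 1 of the 10 at 0, and at 31.7 to 65.5 CPM in endothelium, where Lama1 had 65 to 418 counts. In Sl/Sl clusters replicate 1 the single gene Actc1, which encodes cardiac actin, made up 340.3 of the 363 CPM. A list of 8 epithelial markers summed to 117, 74.9, 132 and 209 CPM in clusters and 145, 45.4, 1.51 and 65.3 CPM in endothelium. Whether other cells had a part in the Lama1 counts was not tested. Col5a2 was the third by p, at a log2 fold change of 0.68 ± 0.42 (edgeR, adjusted p = 1.0) that was -0.04 without Sl/Sl clusters replicate 2.

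Of the 40 members, 33 had positive log2 fold changes in Sl/Sl clusters, with a median of 1.20 beside 0.03 over all genes tested. The median was -1.30 without Sl/Sl clusters replicate 2. Without wild type clusters replicate 1, 4 members were called, Col4a1, Col4a2, Col18a1 and Lamc1, all higher in Sl/Sl. The wild type group then held replicate 2 alone, the library with the lowest endothelial markers, in which these genes were at 2.06, 1.92, 4.41 and 1.68 RPKM. The share of all genes called in that fit is not given here.

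In endothelium no basement membrane chain passed the test between the genotypes. Col4a1 averaged 224 ± 62.0 RPKM for wild type and 248 ± 25.7 RPKM in Sl/Sl, Col4a2 116 ± 27.0 and 141 ± 18.4 RPKM, Col18a1 113 ± 42.7 and 125 ± 33.7 RPKM, and Lamb1 57.3 ± 22.5 and 44.1 ± 13.1 RPKM (SD, n = 2). Each of these 4 genes overlapped between the genotypes. Lamc1, at 22.6 ± 0.247 RPKM in wild type and 34.8 ± 1.04 RPKM in Sl/Sl, did not overlap. Col15a1, at 7.72 ± 0.615 and 11.1 ± 1.38 RPKM, and Col4a5, at 2.54 ± 0.163 and 3.36 ± 0.437 RPKM, did not overlap either, nor did Lama2, which had at most 3 counts. Outside the basement membrane classes, Col2a1, Col6a1, Col12a1, Col16a1 and Col27a1 did not overlap and were lower in Sl/Sl. The share of all genes that did not overlap is not given here, so these are descriptions only. Lama3, at 4.48 ± 1.87 and 7.66 ± 2.64 RPKM, and Lama4, at 44.4 ± 14.6 and 30.4 ± 5.28 RPKM, met at their nearest libraries, which were at 5.80 and 5.79 RPKM for Lama3 and both at 34.1 RPKM for Lama4. edgeR called 0 members and 0.0% of all genes, gave 0 members at an unadjusted p under 0.05 beside 4.17% of all genes, and DESeq2 called 0 members beside 0.856%. Among the 3 members of smallest p, Col14a1 had 163 and 0 counts for wild type against 0 and 1 for Sl/Sl (edgeR, adjusted p = 1.0), and Col16a1 had 45 and 61 counts and 0 and 5 (edgeR, adjusted p = 1.0). Col14a1 rested on wild type endothelium replicate 1, without which its log2 fold change was 2.63.

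Whether the genotype difference itself differed between the cell types was tested as an interaction. edgeR called 0 of the 40 members and 0.0% of all genes. Lama1 was among the 2 members at an unadjusted p under 0.05, beside 5.29% of all genes, and among the 2 that DESeq2 called, beside 0.887% (edgeR adjusted p = 0.902, DESeq2 adjusted p = 0.00400). Lama1 had 0 and 0 counts in wild type clusters where the other 3 groups had 65 to 418 counts. Col2a1, the cartilage collagen and the third by p (edgeR, adjusted p = 0.910), had 0, 49, 185 and 375 counts over the cluster libraries and 150, 289, 85 and 0 counts over the endothelium libraries. Of the 40 members, 34 had negative interaction values, with a median of -0.99 beside -0.10 over all genes tested, which was 0.81 without Sl/Sl clusters replicate 2. Without wild type clusters replicate 1 the interaction of Col4a1 was called. An exact permutation test of a single value with 2 libraries against 2 cannot give a p below 0.333.

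Of 73 tested genes from 4 lists of genes that work with collagens and laminins, edgeR called 25 in wild type, all higher in endothelium, beside the 4.56% of all genes given above, and 2 in Sl/Sl, also higher, beside 0.985%. DESeq2 called 32 in wild type, 0 of them lower, and 17 in Sl/Sl, 3 of them lower. It called 9.81% of all genes higher in wild type and 4.18% in Sl/Sl. At an unadjusted p under 0.05 edgeR gave 34 and 25 of the 73, and 2706 and 1997 of all 13908 genes tested. Counts for single lists below are edgeR's at the adjusted threshold. Of 18 other basement membrane genes, 8 rose in wild type endothelium and 0 fell. Nid1, the linker between the laminin and collagen IV networks, had 7056 and 4814 counts in endothelium against 226 and 95 in clusters of wild type, and rose by 5.28 ± 0.45 on the log2 scale (edgeR, adjusted p = 0.00110). It was also the only gene of this list called in Sl/Sl, where it had 7224 and 5174 counts in endothelium and 935 and 1130 in clusters and rose by 3.00 ± 0.40 (adjusted p = 0.00971). Sparc, a collagen-binding protein, rose by 2.67 ± 0.37, Agrn, a heparan sulfate proteoglycan, by 3.13 ± 0.48, Egfl7, secreted by endothelium, by 1.62 ± 0.36, and Mmrn2, an endothelial matrix protein, by 3.16 ± 0.71 in wild type.

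Among 26 tested genes of collagen folding, modification and processing, 7 rose in wild type endothelium, 0 fell, and 0 were called in Sl/Sl. They included Plod1, a lysyl hydroxylase, at 2.10 ± 0.37, Ppib, a prolyl isomerase of the endoplasmic reticulum, at 1.33 ± 0.28, Bmp1, the procollagen C-proteinase, at 1.81 ± 0.45, P4ha3, a prolyl hydroxylase subunit, at 3.43 ± 0.95, and Serpinh1, the collagen chaperone, at 1.98 ± 0.56. Of 14 tested receptors, 3 rose in wild type and 1 in Sl/Sl. Itgb1, the beta1 integrin chain shared by the collagen and laminin receptors, rose in both, by 1.32 ± 0.27 (adjusted p = 0.0300) and 1.28 ± 0.27 (adjusted p = 0.0600). Itga1 and Itga2, its collagen-binding alpha partners, rose in wild type, Itga1 from 25 and 1 counts in clusters to 413 and 511, and Itga2 from 0 and 0 to 367 and 158. Of 15 tested genes of matrix turnover, 7 rose in wild type and 0 in Sl/Sl. Timp3 and Timp1, inhibitors of metalloproteinases, rose by 2.45 ± 0.38 and 2.78 ± 0.48, Mmp2, a gelatinase, by 2.79 ± 0.54, Adamts5, a proteoglycan-cleaving protease, by 5.51 ± 1.23, and Mmp15, a membrane-bound metalloproteinase, by 6.44 ± 1.52. No gene of the 4 lists was called lower in endothelium by edgeR in either genotype, where DESeq2 called 0 lower in wild type and 3 in Sl/Sl, and an unadjusted p under 0.05 gave 1 and 4. Between the genotypes edgeR called 0 of the 73 tested genes of these lists in clusters, with 13 at an unadjusted p under 0.05, 1 of them lower in Sl/Sl, beside 4.22% of all genes, and 4 called by DESeq2, all higher, beside 1.16%. In endothelium the counts were 0, 0 and 0, and for the interaction 0, then 7 beside 5.29% of all genes and 2 beside 0.887%, all with negative values. Nid1 had the smallest p of these genes named here in clusters, at a log2 fold change of 2.54 ± 0.40 (edgeR, adjusted p = 0.172).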

How the data were processed

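The authors made SMARTSEQ2 libraries from 100 sorted cells each and read them as pairs of 75 bp. The paper's methods and the submitters' processing notes give alignment by STAR v2.4.2a (genome mm9) and counting by featureCounts (Subread v1.4.5). What was deposited is the raw count of each gene in 8 libraries (2 per group, 0 samples without a group), with exon coordinates and exon length, and no normalization. The gene annotation and the strand setting are not given in the sources used here, so genes that overlap may share reads. Among members these are Col9a3 with Tcfl5 on the opposite strand (229 exon bases) and Col7a1 with Mir711 (36 bases). Dates stood in place of 27 gene names in the deposited file, and they were kept in the tests.

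Tests were run on the deposited counts with edgeR 4.0.16 in R 4.3.3, with TMM factors, filterByExpr on the 4 groups, 1 mean per group and no block, and with DESeq2 1.42.0 as an alternative. RPKM used the deposited exon lengths and plain totals, CPM of marker lists plain totals, and fold changes TMM-scaled totals. A count of 0 was set at 3 counts for lower bounds, which compare the mean of the higher group with that floor. Genes were named if called, if among the 12 highest members by mean RPKM, if tested collagen IV or laminin chains, or if among the 3 smallest p in a genotype comparison, and partner genes if called, at most 5 per list. Others were named after their values were seen. Of the genes these rules name, 1 is not reported here, nor are 2 promoter sequences, and counts over the members include that gene. The members and lists were chosen with earlier results of these data known. Left out in turn or changed were the tool, size factors, low-count filter, threshold, samples in the fit, replicate block, exon length trend and each library.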

Additional observations from a re-analysis of the deposited data

How the results depend on the processing

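With 2 libraries per group, single libraries decided several values. The count of members called between the cell types was 7 in wild type and became 12 with no filter on low counts, of which Col1a1 and Col1a2 were lower. In Sl/Sl it was 3 and became 1 at an adjusted p under 0.05, 16 with no filter, 10 with DESeq2 on 8 libraries, 11 with DESeq2 on the 2 groups compared, and 6 with the replicate number as a block. Between genotypes in clusters it was 0 and became 4 with no filter, 1 with DESeq2 on 8 libraries and 2 with DESeq2 on the 2 groups. For the interaction it was 0 and became 4 with no filter and 2 with DESeq2. In endothelium it was 0 between genotypes under every setting run. Apart from DESeq2 on 8 libraries, the share of all genes called under an alternative setting or with a library left out is not given here. These counts are thus not read as results about the members. Leaving out 1 library at a time, the 5 counts ran from 5 to 9 in wild type, 2 to 5 in Sl/Sl, 0 to 4 between genotypes in clusters, 0 to 0 in endothelium and 0 to 1 for the interaction.

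The median log2 fold change of the members was 1.80 in wild type and 1.89 in Sl/Sl with at least 10 counts in every library, where the Sl/Sl value is of opposite sign to the -1.0 reported. Leaving out 1 library it ran from 0.19 to 1.54 in wild type, -2.23 to 2.20 in Sl/Sl, -1.30 to 1.70 between genotypes in clusters, -0.72 to 0.35 between genotypes in endothelium, and -2.17 to 0.81 for the interaction. The value of opposite sign came without Sl/Sl clusters replicate 2 in the Sl/Sl, cluster and interaction cases, and without wild type endothelium replicate 1 in endothelium. Single genes that turned were Col5a2 between genotypes in clusters (-0.038 to 1.17, negative without Sl/Sl clusters replicate 2), and Col14a1 between genotypes in endothelium (-9.29 to 2.63, positive without wild type endothelium replicate 1). The causes were not tested. Of the other values of named genes under an alternative, 182 kept their direction and side of the threshold, 16 no longer passed and 5 came to pass. The replicate numbers were not shown to pair samples, since deviations of same-numbered libraries correlated at 0.16 between genotypes in clusters, -0.01 and 0.02 between cell types, and -0.0025 between genotypes in endothelium. With the replicate block the wild type median was 1.68, 9 members were called in wild type, 6 in Sl/Sl and 0 in the genotype comparisons and the interaction.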
